A study of Mus musculus with 2 samples.

Results

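The 9 genes described here belong to interleukin-1 signalling and the inflammasome, and were followed through marrow cell types of mice with a nailed osteoporotic fracture: Il1b, Il1rn, Il1r2, Il1f9, Nlrp3, Casp1, Casp4, Pycard and Il18. They were taken by symbol, and each of the 9 symbols matched 1 of the 32285 genes in the count tables. The cells came from the marrow of the femur and from the implant itself, and were measured by droplet sequencing of transcript 3′ ends (10x Chromium 3′ v3), which counts unique molecular identifiers (UMIs) per gene and cell. There were 2 groups with 1 library each. The Mg-TAGelMA group carried an intramedullary nail, a rod inside the marrow cavity, labelled Mg-TAGelMA. GelMA is the usual short form of gelatin methacryloyl, a gelatin that cures into a hydrogel under light. What TA stands for is not given in the labels. The Mg group carried a magnesium nail. Both groups shared the osteoporotic fracture. Strain, sex, age, time after surgery, the number of mice and any pooling are not given in the sources used here, so the libraries have no replicate check, and every interval below covers counting error in these 2 libraries and not the spread between mice.

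Interleukin-1β (Il1b) is made as an inactive precursor after innate immune cells sense damage or microbes. Sensors such as NLRP3 (Nlrp3) join the adaptor ASC (Pycard) to recruit caspase-1 (Casp1) into an inflammasome, which cleaves the precursors of interleukin-1β and interleukin-18 (Il18), while caspase-11 (Casp4 in the mouse) senses bacterial lipopolysaccharide inside the cell. The receptor antagonist (Il1rn) and the decoy receptor (Il1r2) blunt interleukin-1 signals, and interleukin-36γ (Il1f9, also Il36g) is a related ligand. Neutrophils and monocytes of the marrow are well known sources of several of these transcripts, and interleukin-1 signalling is known to act on bone-resorbing osteoclasts.

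In the mm10 genome, as annotated by GENCODE, Il1b lies on the minus strand at chr2:129364570-129371139, Il1rn at chr2:24336853-24351494 and Il1f9 at chr2:24186476-24193568, both on the plus strand. Il1r2 spans chr1:40074079-40125231 and Nlrp3 chr11:59541568-59566956, both on the plus strand. Casp1, at chr9:5298517-5307265, and Casp4, at chr9:5308828-5336783, are neighbours on the plus strand, and Il18 lies at chr9:50554827-50581840 on the plus strand. Pycard lies on the minus strand at chr7:127989708-127993867. Il1bos is antisense to Il1b and had 96 UMIs in Mg-TAGelMA cells and 16 in Mg cells, against 29480 and 852 for Il1b. Whether reads were exchanged between these strands was not tested. Gm16894 overlaps Il1r2 on the other strand and had 322 UMIs in Mg-TAGelMA cells and 52 in Mg cells. Bco2, antisense to Il18, had 99 UMIs in Mg-TAGelMA cells and 27 in Mg cells, against 451 and 294 for Il18.

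The 250 bases before the start site are shown for 3 genes whose transcripts were higher in mature than in immature neutrophil-like cells (Il1b, Il1f9, Nlrp3) and for Casp1, which stayed low there in both. The sequences are RefSeq's, build GRCm38.p6, 5′ to 3′ on the strand of the gene, and none overlaps an annotated exon. They cover chr2:129371140-129371389 (minus strand, Il1b), chr2:24186226-24186475 (plus strand, Il1f9), chr11:59542436-59542685 (plus strand, inside the annotated Nlrp3 gene) and chr9:5298267-5298516 (plus strand, Casp1). Capitals mark a match on either strand to GAGGAA (the core read by PU.1, a myeloid factor), to TATAAA (the box that helps place a start site) or to GGGNNNNNCC (a loose κB site). TTGCNNAA (C/EBP) was searched too. No matches overlapped in the 4 windows.
Il1b: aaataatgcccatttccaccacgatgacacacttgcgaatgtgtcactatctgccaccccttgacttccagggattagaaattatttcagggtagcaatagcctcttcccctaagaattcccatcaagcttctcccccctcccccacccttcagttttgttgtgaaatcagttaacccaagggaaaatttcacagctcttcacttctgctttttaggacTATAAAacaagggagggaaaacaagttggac
Il1f9: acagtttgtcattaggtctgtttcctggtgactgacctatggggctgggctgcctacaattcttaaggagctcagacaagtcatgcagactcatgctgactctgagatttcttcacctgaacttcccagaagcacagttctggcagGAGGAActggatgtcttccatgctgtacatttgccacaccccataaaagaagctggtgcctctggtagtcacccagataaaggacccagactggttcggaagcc
Nlrp3: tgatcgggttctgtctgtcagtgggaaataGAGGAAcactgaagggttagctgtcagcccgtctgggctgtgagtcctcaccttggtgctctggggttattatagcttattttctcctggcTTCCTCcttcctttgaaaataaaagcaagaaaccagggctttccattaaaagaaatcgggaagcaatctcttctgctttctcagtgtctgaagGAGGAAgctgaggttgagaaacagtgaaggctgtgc
Casp1: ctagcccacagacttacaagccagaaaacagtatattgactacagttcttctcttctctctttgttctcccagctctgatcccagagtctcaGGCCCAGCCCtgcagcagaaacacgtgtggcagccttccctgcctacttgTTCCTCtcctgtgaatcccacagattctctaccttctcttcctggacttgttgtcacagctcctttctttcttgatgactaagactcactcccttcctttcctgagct
The Il1b sequence held TATAAA 31 bases before the start, a motif found in 12.4% of 32851 mouse promoter windows of the same length. The Il1f9 sequence held 1 GAGGAA, 104 bases before its start. The Nlrp3 sequence held 3 matches, at 220, 129 and 36 bases. The Casp1 sequence held 1, at 108 bases, next to a GGGNNNNNCC match at 158 bases. Nlrp3 has another window, chr11:59541319-59541568, which overlaps an annotated exon and is not printed. That window held a GGGNNNNNCC match at 186 bases. The windows of Il1rn and Il1r2, also higher in mature cells, overlap exons too and are not printed. GAGGAA was found in 23.3% of the windows, GGGNNNNNCC in 45.8% and TTGCNNAA in 9.56%. The matches describe letters only.

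The Mg-TAGelMA library held 79890998 UMIs over 7591 barcodes, and the Mg library 58261391 UMIs over 9466 barcodes. After filtering, 7226 cells of the Mg-TAGelMA library remained with a median of 6744 UMIs, and 8122 cells of the Mg library with a median of 3804 UMIs. Each cell was assigned by its own counts to 1 of 19 marker lists, none of which held any of the 9 genes. The classes are written "-like" because only RNA names them. Every class compared here had 2 to 6 of its own markers among its 10 leading genes and 0 markers of another lineage. The libraries differed in makeup: the mature neutrophil-like class held 1873 Mg-TAGelMA cells (25.9% of those kept) and 346 Mg cells (4.26%), with median depths of 5065 and 1786 UMIs. Cells that passed lists of more than 1 lineage were set aside, 534 of the Mg-TAGelMA library and 227 of the Mg library, as were 578 and 1575 that passed none. Of the barcodes, 21 occurred in both libraries, 19 of them among kept cells, and none was left out for that. Levels are given, for the summed Mg-TAGelMA cells or Mg cells of a class, as CPM, the class's counts scaled to 1000000 UMIs. The size rule asked that the 95% interval of the ratio lie wholly beyond 2-fold, with at least 50 CPM in the higher library.

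Summed over all kept cells, the inflammatory ligand, its decoy receptor and the sensor were more abundant with the Mg-TAGelMA nail. Il1b had 29480 UMIs (393 CPM) in the Mg-TAGelMA library and 852 (15.4 CPM) in the Mg library, a 25.5-fold ratio (interval 23.8 to 27.3). Il1r2 had 37914 UMIs in Mg-TAGelMA cells and 1627 in Mg cells (17.1-fold, 16.3 to 18.0). Nlrp3 had 7822 and 605 UMIs in the same order of libraries (9.51-fold, 8.76 to 10.4), and Il1f9 had 3887 and 350 (8.17-fold, 7.32 to 9.14). These 4 of the 5 genes that reached 50 CPM were higher past the rule, against 18.8% of 3973 genes, and 0 were lower, against 7.63%. The fifth was Pycard, with 9272 UMIs (124 CPM) in Mg-TAGelMA cells and 7104 (129 CPM) in Mg cells, a ratio of 0.96 (0.931 to 0.991). Il1rn, Casp1, Casp4 and Il18 stayed below 50 CPM in both libraries, with ratios of 2.65, 1.77, 3.62 and 1.13.

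The makeup of the libraries moved with these sums. Mature neutrophil-like cells held 77.9% of all Il1b UMIs in Mg-TAGelMA cells and 33.3% in Mg cells. Of the Il1r2 UMIs they held 62.3% in Mg-TAGelMA cells and 26.4% in Mg cells, where on the Mg side immature neutrophil-like cells held 54.0%. When the Mg library's level in each of 18 classes was weighted by the class shares of the Mg-TAGelMA library, its Il1b level became 62.2 CPM. Here the cells set aside, of mixed lineage or passing no list, counted as classes. The mixed cells held 13850615 UMIs of the Mg-TAGelMA library and 3215142 of the Mg library. The shares alone therefore gave a 4.03-fold ratio and the levels within classes the remaining 6.32-fold. For Il1r2 the shares gave 3.55-fold and 4.83-fold remained, and for Nlrp3 3.05-fold with 3.12-fold remaining. For Il1f9 the shares gave 5.14-fold and 1.59-fold remained. Il1rn turned round: the shares gave 3.69-fold, and the remaining ratio was 0.717. The weighting is arithmetic on 1 library each and has no error of its own. It was done in this order only, and the reverse order, which can give other parts, was not computed.

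**Figure D1:**
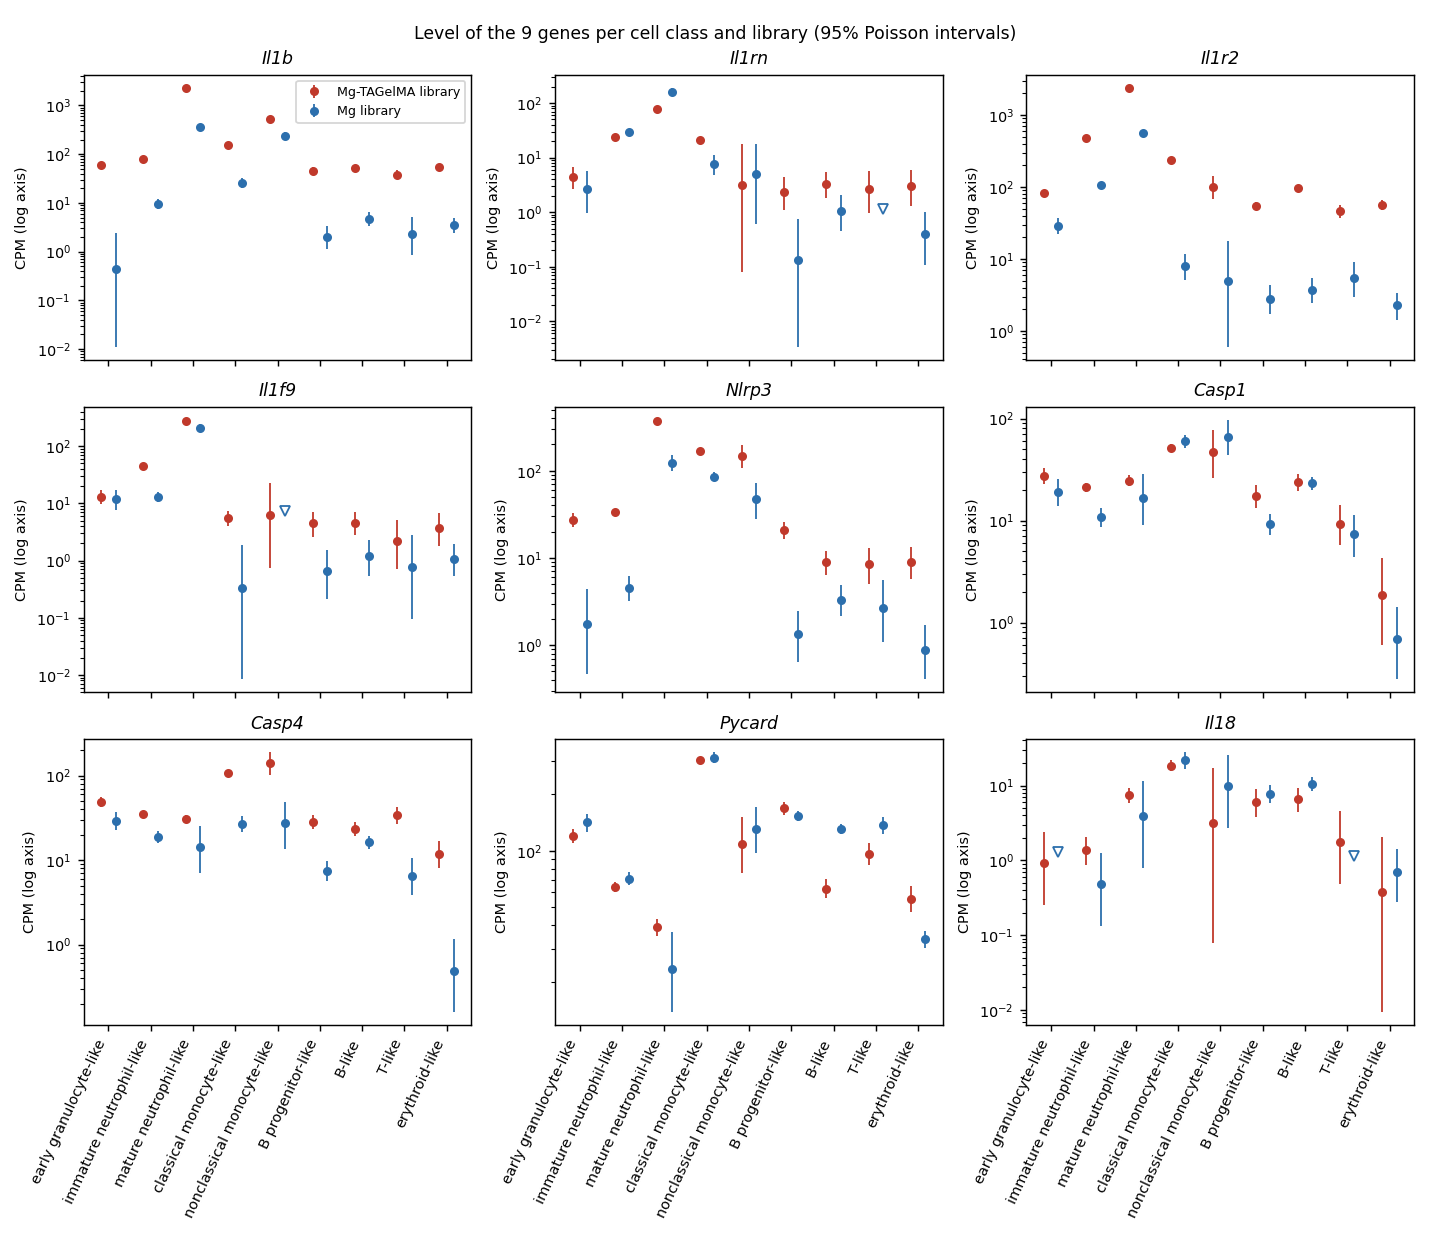
Level of each of the 9 genes (CPM, log axis, a scale of its own per panel) in 9 cell classes, with the Mg-TAGelMA library (red) left of the Mg library (blue) and 95% Poisson intervals. Open triangles stand at 3 counts where a class had 0. Of the classes drawn, mature neutrophil-like cells were highest for Il1b, Il1rn, Il1r2, Il1f9 and Nlrp3 in both libraries, and other classes for Casp1, Casp4, Pycard and Il18.

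Within the neutrophil lineage of each library, 5 genes were higher in the mature than in the immature class. Il1b averaged 2307 CPM in mature and 79.9 CPM in immature Mg-TAGelMA cells (28.9-fold, 27.3 to 30.5), and 368 and 9.42 CPM in the Mg library (39.0-fold, 30.2 to 50.9). Nlrp3 had 370 CPM in mature and 33.9 CPM in immature Mg-TAGelMA cells (10.9-fold), and 123 and 4.53 CPM in the Mg library (27.2-fold). Il1f9 was 6.12-fold higher in mature cells of the Mg-TAGelMA library and 16.4-fold in the Mg library, Il1r2 5.02-fold and 5.18-fold, and Il1rn 3.24-fold and 5.40-fold. All 5 passed the rule in both libraries, where 17.2% of genes in Mg-TAGelMA cells and 11.9% in Mg cells were higher in mature cells, 9.77% and 7.35% lower, and 0 of the 9 genes passed as lower. Of the genes that reached 50 CPM one step earlier, Il1r2 was the only one to pass as higher. It was already 5.78-fold higher in immature than in early granulocyte-like Mg-TAGelMA cells and 3.75-fold in the Mg library. At this step 11.2% and 7.27% of genes were higher and 23.4% and 12.7% lower. Il1rn and Il1f9 lay below 50 CPM there and were not tested. Il1rn was 5.48-fold higher (3.46 to 9.19) in the Mg-TAGelMA library and 11.5-fold (5.20 to 31.6) in the Mg library. Its counts in the early class were 19 and 6 UMIs. Il1f9 was 3.50-fold higher (2.67 to 4.68) and 1.10-fold (0.718 to 1.75). Against the early class, the mature class was higher in the same 5 genes in both libraries, where 25.6% and 22.1% of genes were.

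Pycard ran the other way along the lineage. It had 120 CPM in early granulocyte-like, 64.4 CPM in immature and 39.0 CPM in mature neutrophil-like Mg-TAGelMA cells, and 142, 71.1 and 23.3 CPM in the Mg library. The mature class fell below the early class by 3.09-fold in the Mg-TAGelMA library (2.71 to 3.53) and by 6.08-fold in the Mg library (3.79 to 10.4), where 35.2% and 26.5% of all genes were lower. Casp4 had 48.8, 34.6 and 30.9 CPM over the same 3 stages of the Mg-TAGelMA library and 29.1, 19.0 and 14.2 CPM in the Mg library, below the level needed for a call. Casp1 stayed between 21.2 and 27.5 CPM in the Mg-TAGelMA library and between 10.9 and 19.1 CPM in the Mg library. Among these 3 stages, Il1b and Nlrp3 were thus highest where Pycard was lowest, in both libraries.

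Between the libraries, mature neutrophil-like cells were compared directly, on 9959991 UMIs of the Mg-TAGelMA library and 772712 of the Mg library. Il1b had 22976 UMIs (2307 CPM) in Mg-TAGelMA cells and 284 UMIs (368 CPM) in Mg cells, 6.28-fold (5.58 to 7.08). Il1r2 had 23635 UMIs (2373 CPM) in Mg-TAGelMA cells and 430 UMIs (556 CPM) in Mg cells, 4.26-fold (3.88 to 4.70). Nlrp3 had 3686 UMIs (370 CPM) in Mg-TAGelMA cells and 95 UMIs (123 CPM) in Mg cells, 3.01-fold (2.46 to 3.73). These 3 of 5 genes with enough counts were higher past the rule, against 11.9% of 2941 genes, and 0 were lower, against 8.81%. The median log2 ratio of all genes tested was −0.09. Il1f9 had 2760 UMIs (277 CPM) in Mg-TAGelMA cells and 164 UMIs (212 CPM) in Mg cells, a ratio of 1.31 (1.12 to 1.54) that did not pass. When cells were clustered in place of gated, the 346 mature Mg cells all fell in a cluster named immature, so this comparison has no value from clusters.

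The receptor antagonist gave the only point estimate below 1 among the 9 genes of this class. Il1rn had 777 UMIs (78.0 CPM) in mature cells of the Mg-TAGelMA library and 125 UMIs (162 CPM) in those of the Mg library, a ratio of 0.482 (0.399 to 0.587). The interval crossed 0.5, so the rule was not met, and over the alternatives the ratio lay between 0.402 and 0.612. Casp1 (246 and 13 UMIs), Casp4 (308 and 11), Pycard (388 and 18) and Il18 (74 and 3) stayed below 50 CPM in both libraries, giving the Mg-TAGelMA count first. The Mg counts were 18 or fewer, and all 4 intervals contained a 2-fold ratio.

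Other measures moved with the mature class. The 8 immature neutrophil markers summed to 15397 CPM in mature cells of the Mg-TAGelMA library and 24414 CPM in those of the Mg library. The 10 mature markers summed to 40453 and 36602 CPM, but were split, with 5 higher and 5 lower in the Mg-TAGelMA library. Retnlg alone had 29177 CPM in Mg-TAGelMA cells and 21888 CPM in Mg cells, while Mmp8 had 2439 and 5394 CPM. Ltf, a secondary granule protein gene, had 823 CPM in Mg-TAGelMA cells and 3591 CPM in Mg cells, and the part of such stage differences in the ratios was not tested. The count software also differed (Cell Ranger 7.0.1 with Mg-TAGelMA cells, 5.0.0 with Mg cells), and its part cannot be told apart from the nail. By total annotated intron, the median log2 ratio of this class was −0.29 for genes with 2 to 8 kb, −0.32 with 16 to 32 kb, −0.20 with 32 to 64 kb and 0.59 above 64 kb. Il1b has 4.66 kb of intron, Nlrp3 21.3 kb and Il1r2 49.2 kb. A bin median does not give the part of intronic reads in a single gene, which was not tested. Scaling by TMM or by size factors would add 0.34 or 0.33 to every log2 ratio of this class.

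**Figure D2:**
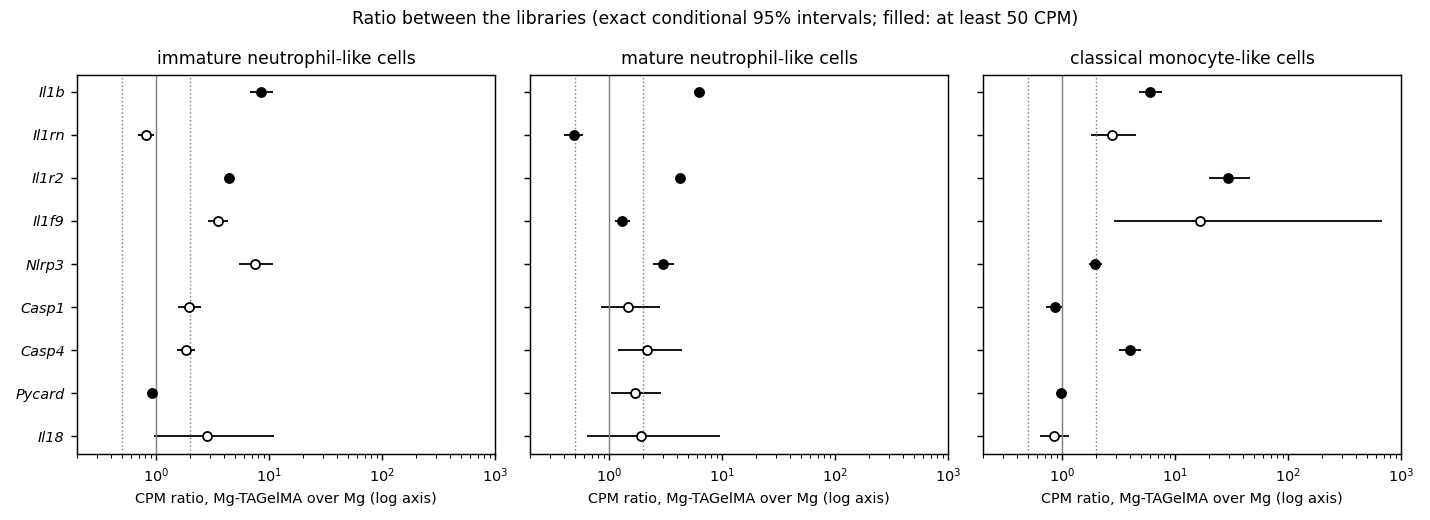
Ratio of CPM, Mg-TAGelMA over Mg (log axis), for the 9 genes in 3 cell classes, with exact conditional 95% intervals. Filled points had at least 50 CPM in the higher library, the solid line is 1 and dotted lines are 0.5 and 2. Il1b and Il1r2 lay above 2 in all 3 classes, and Pycard was 0.906 in immature cells and 0.969 in monocytes.

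Il1r2 and Il1b were also higher in immature neutrophil-like cells of the Mg-TAGelMA library, at lower levels. Il1r2 had 8000 UMIs (473 CPM) in Mg-TAGelMA cells and 879 UMIs (108 CPM) in Mg cells, 4.40-fold (4.10 to 4.72). Il1b had 1351 UMIs (79.9 CPM) in the Mg-TAGelMA library and 77 UMIs (9.42 CPM) in the Mg library, 8.48-fold (6.74 to 10.8). Both were higher past the rule, with Pycard at 0.906 (0.818 to 1.004) the third gene tested, against 9.26% of 2938 genes higher and 5.07% lower. Below 50 CPM and so not tested, Nlrp3 had 574 UMIs in Mg-TAGelMA cells and 37 in Mg cells, 7.50-fold (5.37 to 10.8). Il1f9 had 766 and 106 UMIs, 3.49-fold (2.85 to 4.32), and Il1rn had 407 and 245 UMIs, a ratio of 0.803 (0.684 to 0.945). For scale, B-like, T-like and erythroid-like Mg-TAGelMA cells had 38.2 to 54.0 CPM of Il1b, and the part of free RNA in the immature level was not tested. With immature cells taken from named clusters, which on the Mg side then held the mature cells too, neither gene passed, with a log2 ratio of −0.18 for Il1b and 0.89 for Il1r2.

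Single cells differed widely in how much of the message they held. To remove the difference in depth, each cell was thinned to 1000 UMIs, which left out 4 mature neutrophil-like Mg-TAGelMA cells and 50 of the Mg library. An Il1b UMI was then found in 1074 of 1869 cells (57.5%) of the Mg-TAGelMA library and in 48 of 296 (16.2%) of the Mg library, with 78.1% and 22.5% before thinning. At least 5 Il1b UMIs per 1000 were found in 459 cells (24.6%) of the Mg-TAGelMA library and in 5 (1.69%) of the Mg library. The 10% of cells with the most Il1b carried 44.7% of the class's thinned Il1b UMIs in Mg-TAGelMA cells and 85.4% in Mg cells. These shares rest on 5608 and 123 thinned UMIs, and few UMIs alone raise such a share, so they are not comparable. Il1r2 was more even in the Mg-TAGelMA library: 79.5% of cells there and 40.2% in the Mg library had a UMI (99.0% and 61.6% unthinned). Nlrp3 was found in 29.3% of cells of the Mg-TAGelMA library and 11.8% of the Mg library (70.6% and 19.4% unthinned). In erythroid-like cells, which should lack both, the thinned shares were 7.55% for Il1b and 3.77% for Il1r2 in the Mg-TAGelMA library (106 cells) and 0.224% and 0.336% in the Mg library (892 cells), with median depths of 14924 and 4510 UMIs before thinning. B-like cells had 4.36% for Il1b and 9.04% for Il1r2 on the Mg-TAGelMA side and 0.506% for both genes in Mg cells, with median depths of 4681 and 3332 UMIs.

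**Figure D3:**
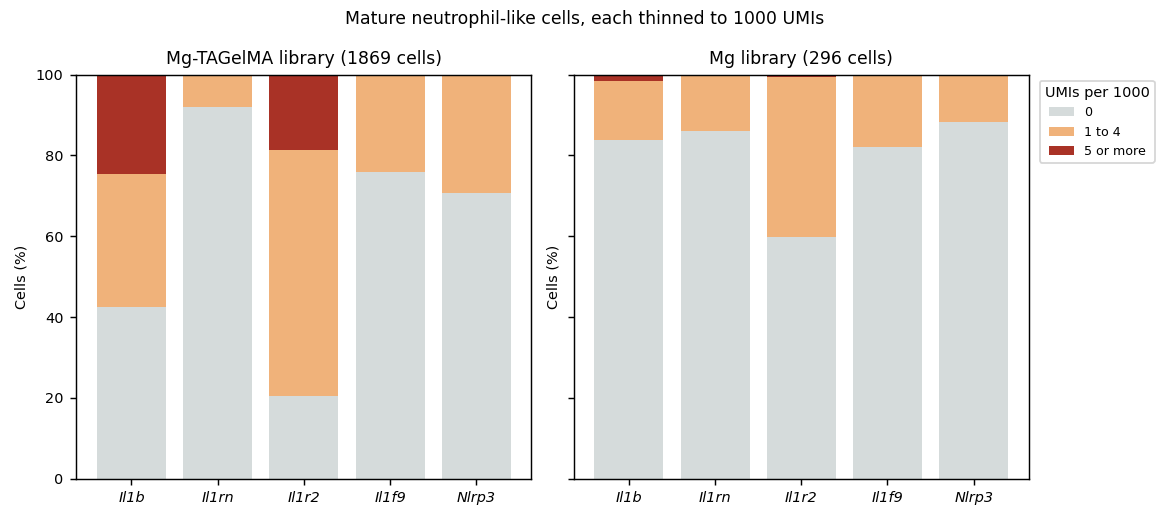
Share of mature neutrophil-like cells (%) with 0, 1 to 4 or at least 5 UMIs of 5 genes after thinning each cell to 1000 UMIs, with the Mg-TAGelMA library (1869 cells) left and the Mg library (296 cells) right. The darkest segment of Il1b is 24.6% in Mg-TAGelMA cells and 1.69% in Mg cells.

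The other genes were then read along the Il1b level of mature neutrophil-like cells in the Mg-TAGelMA library, in 795 cells with 0, 615 with 1 to 4 and 459 with at least 5 Il1b UMIs per 1000. Nlrp3 had 224, 410 and 690 CPM in these bins. Il1r2 had 1566, 2515 and 4287 CPM, and Casp4 21.7, 31.5 and 54.8 CPM. Il1f9 had 248, 301 and 314 CPM. For each of these 4 genes the 95% Poisson intervals of the lowest and the highest bin did not overlap. Il1rn had 73.5, 75.2 and 94.96 CPM, with intervals of 66.2 to 81.5 CPM in the lowest and 81.4 to 110.1 CPM in the highest bin. Casp1 (25.3, 27.1 and 19.0 CPM), Pycard (41.3, 35.6 and 38.5 CPM) and Il18 (6.48, 7.87 and 9.22 CPM) had overlapping intervals in all 3 bins. Granule and stage markers differed along the same axis. Retnlg, a neutrophil resistin-like gene, had 32243, 31781 and 16504 CPM, and Mmp8, which encodes neutrophil collagenase, 3152, 2215 and 916 CPM. Cxcr2, from the same list of mature markers, went the other way, with 360, 408 and 424 CPM. The immature markers Camp (3878, 2041 and 1715 CPM) and Ngp (6731, 2772 and 1487 CPM) fell. Median depth was 5998, 4969 and 3881 UMIs. The cells all came from 1 library, so the bins are no replicates of anything.

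**Figure D4:**
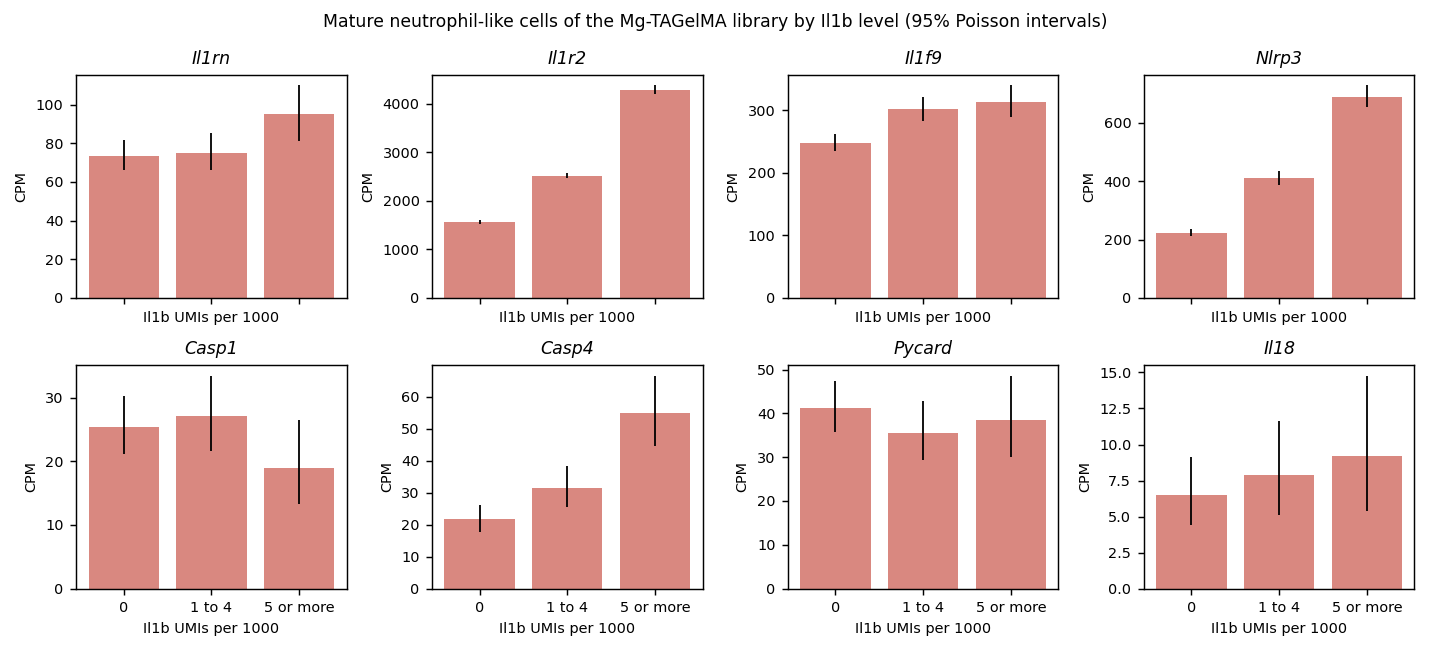
Level (CPM, linear axis from 0 per panel) of the 8 other genes in mature neutrophil-like Mg-TAGelMA cells, split by Il1b UMIs per 1000 into 795, 615 and 459 cells; bars are the summed level of a bin and lines its 95% Poisson interval. Nlrp3 was 224 CPM in the lowest and 690 CPM in the highest bin, while Pycard was 41.3 and 38.5 CPM.

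In classical monocyte-like cells Il1b, Il1r2 and Casp4 were higher in the Mg-TAGelMA library. Il1r2 had 1946 UMIs (233 CPM) in 592 cells of the Mg-TAGelMA library and 24 UMIs (7.92 CPM) in 352 cells of the Mg library, 29.5-fold (19.7 to 46.1). Il1b had 1302 UMIs (156 CPM) in the Mg-TAGelMA library and 79 UMIs (26.1 CPM) in the Mg library, 5.99-fold (4.77 to 7.61). Casp4 had 893 UMIs (107 CPM) in the Mg-TAGelMA library and 82 UMIs (27.1 CPM) in the Mg library, 3.96-fold (3.15 to 5.02). With counts thinned to 1000 UMIs per cell, the Casp4 ratio was 2.63-fold and no longer passed, and over the alternatives the Il1b ratio lay between 3.67-fold and 12.1-fold, past the rule in each. These 3 of 6 genes with enough counts were higher past the rule, against 15% of 3935 genes, and 0 were lower, against 1.55%. Nlrp3 had 1395 UMIs (167 CPM) in the Mg-TAGelMA library and 260 UMIs (85.8 CPM) in the Mg library, 1.95-fold (1.71 to 2.23), just short of the rule. Casp1, at 51.3 CPM in the Mg-TAGelMA library and 60.04 CPM in the Mg library, had a ratio of 0.854 (0.717 to 1.02), and Pycard, at 305 and 315 CPM, a ratio of 0.969 (0.899 to 1.04).

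Thinned to 1000 UMIs, 112 of 588 classical monocyte-like Mg-TAGelMA cells (19.0%) and 1 of 344 Mg cells (0.291%) had an Il1r2 UMI. For Casp4 the shares were 63 of 588 (10.7%) in the Mg-TAGelMA library and 14 of 344 (4.07%) in the Mg library. Unthinned, Il1r2 was found in 82.9% of the cells of the Mg-TAGelMA library and 6.25% of those of the Mg library, and Casp4 in 62.7% and 18.2%. In this class genes with 16 to 32 kb of intron, the bin of Casp4, had a median log2 ratio of 0.01, and those with 32 to 64 kb, the bin of Il1r2, 0.24. Il1rn had 175 UMIs in Mg-TAGelMA cells and 23 in Mg cells, and 42 of the 175 came from 1 cell.

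Nonclassical monocyte-like cells had the higher Il1b level of the monocyte classes in both libraries. Il1b had 525 CPM in nonclassical and 156 CPM in classical cells of the Mg-TAGelMA library (3.36-fold, 2.84 to 3.95), and 237 and 26.1 CPM in the Mg library (9.08-fold, 6.67 to 12.4). It passed the rule in both libraries, where 7.54% of genes in Mg-TAGelMA cells and 5.58% in Mg cells were higher. Pycard was lower in nonclassical cells, 109 against 305 CPM in Mg-TAGelMA cells (2.79-fold lower, 2.001 to 4.02) and 131 against 315 CPM in Mg cells (2.41-fold lower, 1.83 to 3.24). Only the Mg-TAGelMA ratio passed, where 4.17% of genes were lower in that library and 3.24% in the Mg library, and the difference between the libraries was not tested. Between the libraries, the 57 nonclassical cells of the Mg-TAGelMA library had 168 Il1b UMIs and the 89 of the Mg library 96, a ratio of 2.22 (1.71 to 2.88) that did not pass. Casp4, with 45 and 11 UMIs (5.18-fold, 2.64 to 11.1), and Il1r2, with 32 and 2 UMIs (20.3-fold, 5.17 to 174), passed, 2 of 6 genes against 13.5% of 4027 genes higher and 1.07% lower. With counts thinned to 1000 UMIs, Casp4 was 2.34-fold and no longer passed, and Il1r2 gave no value.

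Neutrophil transcripts were also counted in lymphoid and erythroid classes, at levels that differed between the libraries. Retnlg, Mmp8 and Mmp9 together had 777 to 930 CPM in B progenitor-like, B-like, T-like and erythroid-like Mg-TAGelMA cells, and 71.4 to 108 CPM in the same classes of the Mg library. Per 100 UMIs of these 3 genes, Il1b had 6.93 in mature neutrophil-like Mg-TAGelMA cells and 4.48 to 6.94 in those 4 classes, and Il1r2 had 7.13 and 5.37 to 10.4, the highest in B-like cells. Early granulocyte-like cells of that library had 4.95 for Il1b and 6.88 for Il1r2, within those ranges. In the Mg library Il1b had 1.24 in mature neutrophil-like cells and 2.32 to 4.83 in the 4 classes, and Il1r2 1.87 and 3.17 to 5.41, so both lay above the mature value there. Early granulocyte-like Mg cells stood further apart for Il1r2, with 34.7 (66 UMIs, 28.7 CPM), and had 0.526 for Il1b (1 UMI). Classical monocyte-like Mg-TAGelMA cells had 15.3 for Il1b, 22.9 for Il1r2 and 16.4 for Nlrp3, all above the 4 classes, in which Nlrp3 had 0.958 to 2.34. Classical monocyte-like Mg cells had 2.94 for Il1r2 (24 UMIs), below the 4 classes of the Mg library. Their values for Il1b (9.69) and Nlrp3 (31.9) lay above those classes. Nonclassical Mg-TAGelMA cells had 58.5 for Il1b and 11.1 for Il1r2, the second close to the B-like value. The part of free RNA in these levels was not tested.

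The size rule was also met in some of these classes. In early granulocyte-like cells Il1b (255 UMIs in Mg-TAGelMA cells and 1 in Mg cells, 136-fold, 24.1 to 5375) and Il1r2 (354 and 66 UMIs, 2.85-fold) were higher, against 5.89% of genes higher and 1.57% lower. Neither passed with a stricter gate. Il1b (11.2-fold) and Il1r2 (26.0-fold) were higher in B-like cells (21.1% of genes higher, 4.46% lower). Both were higher in erythroid-like cells, by 15.6-fold and 24.6-fold (14.0% higher, 1.38% lower). In B progenitor-like cells Il1r2 was 19.3-fold higher (19.7% higher, 1.96% lower). Below 50 CPM and so not tested, Casp4 was 24.2-fold higher (9.35 to 79.5) in erythroid-like cells, from 32 and 5 UMIs. Its ratio was 3.76 (2.70 to 5.29) in B progenitor-like and 1.43 (1.09 to 1.86) in B-like cells. In T-like cells only 1 of the 9 was tested, Pycard, with a ratio of 0.699 that did not pass. Of all genes tested there, 20.4% were higher and 1.93% lower. Il1b (86 UMIs in Mg-TAGelMA cells and 6 in Mg cells, 16.5-fold) lay below 50 CPM there and was not tested. The same held for Il1r2 (103 and 14 UMIs, 8.48-fold) and Casp4 (76 and 17 UMIs, 5.15-fold). The intervals of Il1b, Il1r2 and Casp4 lay wholly above 2-fold. No gene of the 9 was lower past the rule in any of the 9 classes compared.

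Of the 9 genes Pycard had the smallest ratio of highest to lowest class. It ranged over 39.0 to 305 CPM in the 9 compared classes of the Mg-TAGelMA library and over 23.3 to 315 CPM in the Mg library, and was highest in classical monocyte-like cells of both. B-like cells had 289 UMIs (62.8 CPM) in Mg-TAGelMA cells and 990 UMIs (131 CPM) in Mg cells, a ratio of 0.479 (0.418 to 0.546). B progenitor-like cells had 169 CPM in Mg-TAGelMA cells and 153 CPM in Mg cells, a ratio of 1.10. Il18 stayed below 50 CPM in every compared class. Its highest level there was in classical monocyte-like cells, 18.5 CPM (154 UMIs) in the Mg-TAGelMA library and 21.8 CPM (66 UMIs) in the Mg library, a ratio of 0.848 (0.631 to 1.15).

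Classes with fewer than 50 cells in a library were left out of the comparison, and the following were picked after their values were seen. The 46 basophil and mast-like Mg-TAGelMA cells had 364 Nlrp3 UMIs (957 CPM) and the 13 of the Mg library 19 (337 CPM), above the mature neutrophil-like level of Nlrp3 in each library. Il1b had 298 UMIs (784 CPM) and 7 UMIs (124 CPM) in the same cells. The 29 macrophage-like Mg-TAGelMA cells had 15 Il18 UMIs (169 CPM) and the 23 of the Mg library 21 (485 CPM), the highest Il18 level of any class in each library. Il1rn had 19 UMIs (214 CPM) in macrophage-like Mg-TAGelMA cells and 1 UMI (23.1 CPM) in those of the Mg library.

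Other genes of the pathway came from 5 lists of ligands, receptors, signal transducers, inflammasome components and pyroptosis effectors, which held 47 genes beside the 9. In mature neutrophil-like cells 11 of the 47 reached 50 CPM, 4 were higher past the rule and 0 lower, against 11.9% and 8.81% of all genes tested, with a median log2 ratio of 0.29 against −0.09 over all genes tested. Il1rap, the co-receptor subunit of the interleukin-1 receptor, had 2264 UMIs (227 CPM) in the Mg-TAGelMA library and 11 UMIs (14.2 CPM) in the Mg library, 15.97-fold (8.91 to 32.03). Irak2, a signalling kinase-like adaptor below the receptor, had 278 CPM in the Mg-TAGelMA library and 47.9 CPM in the Mg library, 5.81-fold (4.20 to 8.26). Ninj1, which ruptures the membrane of dying cells, had 152 CPM in the Mg-TAGelMA library and 29.8 CPM in the Mg library, 5.10-fold (3.38 to 8.07). Txnip, a thioredoxin-binding protein linked to NLRP3, had 373 CPM in Mg-TAGelMA cells and 140 CPM in Mg cells, 2.67-fold (2.20 to 3.26). Il1rap has 137 kb of annotated intron, in the length bin whose median ratio was itself raised, while Ninj1 has 7.19 kb and Txnip 0.804 kb.

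The remaining 7 tested genes did not pass. Aim2, a DNA sensor, had a ratio of 2.21 (1.43 to 3.596) and Irak3, a brake on receptor signalling, 1.22 (0.90 to 1.70). Il18rap, a subunit of the interleukin-18 receptor, had 199 CPM in Mg-TAGelMA cells and 424 CPM in Mg cells, a ratio of 0.469 (0.417 to 0.528), and Tollip, an inhibitor of receptor signalling, 32.1 and 72.5 CPM, a ratio of 0.443 (0.333 to 0.60). In classical monocyte-like cells 18 of the 47 were tested and 3 were higher: Il1rap (9.75-fold), Irak2 (4.36-fold) and P2rx7, an ATP-gated channel upstream of NLRP3 (3.35-fold). Genes with over 64 kb of intron, the bin of Il1rap, had a median log2 ratio of 1.08 in this class. The share of all genes higher in this class was 15%, near the 3 of 18. Again 0 were lower, against 1.55%, and the median log2 ratio was 0.17 against 0.09 over all genes tested. Gsdmd, which encodes the pore former cut by inflammatory caspases, had 41.5 CPM there in the Mg-TAGelMA library and 67.6 CPM in the Mg library, a ratio of 0.613 (0.514 to 0.733). In immature neutrophil-like cells Il1rap (5.50-fold) and Irak2 (3.87-fold) were higher among 10 tested, against 9.26% of all genes. Over all kept cells 6 of 13 were higher, against 18.8%: Il1rap (9.82-fold), Irak2 (6.57-fold), Ninj1 (2.90-fold), Irak3 (2.46-fold), Aim2 (2.39-fold) and Il18rap (2.29-fold).

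Genes with the most similar pattern were sought by Pearson's r of log2(CPM + 10) over 20 class sums, among 7000 genes, as a description. Hcar2, which encodes a hydroxycarboxylic acid receptor, came nearest to Il1b (r = 0.941) and also to Nlrp3 (r = 0.952). Gk (0.928) and Clec4d (0.920) followed for Il1b. Retnlg came nearest to Il1r2 (r = 0.958) and Stfa2l1, a stefin gene, to Il1f9 (r = 0.977). Gm34589 (0.967), Adam8 (0.966) and Ptgs2, which encodes the prostaglandin synthase COX-2 (0.962), came nearest to Il1rn. Casp1 was nearest to Glud1 (0.906), Casp4 to Ubtd1 (0.897) and Pycard to 2610001J05Rik (0.898). Class sums of 1 library share its depth and its free RNA, and mature neutrophil-like sums weigh heavily in each r.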

How the data were processed

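The study measured RNA of single cells in 1 Mg-TAGelMA and 1 Mg library. The authors deposited raw UMI counts per gene and barcode, not normalized, made with Cell Ranger 7.0.1 (Mg-TAGelMA) and 5.0.0 (Mg), per the file headers. STAR and mm10 are named in the submitters' processing notes. The other deposited files, gene symbols and barcodes, hold no measured unit. Whether intronic reads were counted and the annotation release are not given in the sources used here. Sequence positions came from a GENCODE annotation of mm10, matched by identifier for 99.8% of genes, and from RefSeq.

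Barcodes with under 200 genes (22 in the Mg-TAGelMA library, 189 in the Mg library) or over 15% mitochondrial counts (62 and 1091) were left out, as were doublets called by scrublet (297, 3.95%, and 197, 2.37%). A marker counted as on in a cell with at least 1 UMI and a share of the cell's UMIs above the mean over cells. A cell joined the list with the highest fraction on, at least 50% and at least 3 markers. In the mature neutrophil class 39 cells of the Mg-TAGelMA library and 53 of the Mg library sat at the minimum, and 12 and 38 ungated cells lay 1 marker below it. Counts were summed per class and library and divided by the class total. Ratios have exact conditional binomial 95% intervals, levels Poisson and shares Clopper-Pearson intervals. All cover counting error only. A count of 0 was set to 3. Cells are not replicates, so no p-value is given. The calling rule was tested on simulated counts that held counting error only, so that test does not cover spread between mice, free RNA or gating. Alternatives were 14 other filters, gates, scalings and limits (TMM from edgeR 4.0.16, size factors from DESeq2 1.42.0, R 4.3.3, and clusters from scanpy 1.11.5, Python 3.11.15).

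The 9 genes and the lists were chosen with earlier results of these data known. Beside the 9, genes were named when their pattern ranked in the first 3 for a gene, or when a pathway gene passed the size rule; Gsdmd, Tollip and the classes of under 50 cells were named after their values were seen.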

Additional observations from a re-analysis of the deposited data

Results flagged for a closer look

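Pycard lay on opposite sides of 1 in different classes. Its log2 ratio of Mg-TAGelMA over Mg was −0.24 in early granulocyte-like, −1.06 in B-like and −0.52 in T-like cells, with intervals below 0, but 0.72 in erythroid-like cells, with an interval above 0. The difference between classes was not tested, and none of these ratios passed the size rule. Pycard had 149 UMIs (55.5 CPM) in erythroid-like cells of the Mg-TAGelMA library and 342 UMIs (33.7 CPM) in those of the Mg library. TMM scaling would lower every log2 ratio of the erythroid-like class by a shift of −0.48. Over the alternatives the early granulocyte-like value changed sign with named clusters (0.90), and the erythroid-like value was 1.49 with counts thinned to 1000 UMIs.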

How the results depend on the processing

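Of 500 ratios recomputed under 14 alternatives, 427 were classed as the same, 72 as moved and 1 as reversed. These labels do not count every ratio that crossed 1. The log2 ratio ran from −0.36 to 1.03 for Casp1 in classical monocyte-like cells. For Pycard in early granulocyte-like cells it ran from −0.56 to 0.90. Of 284 ratios for genes past the size rule, 12 no longer passed. In mature neutrophil-like cells Il1b lay between 5.23-fold and 7.96-fold, Il1r2 between 3.56-fold and 5.41-fold and Nlrp3 between 2.51-fold and 3.82-fold, past the rule in every setting that gave a value. Clusters gave none, because the Mg library had no cluster named mature: its 346 gated mature cells all sat in a cluster named immature. The clusters largely separated the libraries, with over 95% of cells from 1 library in 27 of 33 clusters. With those clusters the immature class had a reversed Il1b log2 ratio of −0.18, 0 genes higher in place of 2 and 1 lower. Il1rn was counted lower in mature cells (1 gene) without Gm42418 and AY036118, which took 0.110% of UMIs in Mg-TAGelMA cells and 6.90% in Mg cells, and with a 1.5-fold limit. For the other moved counts of genes past the rule the cause was not tested. Counts thinned to 1000 UMIs left 2 higher in classical monocyte-like cells, without Casp4, 1 in early granulocyte-like, 0 in nonclassical monocyte-like, 0 in B progenitor-like, 1 in B-like and 1 in erythroid-like cells. A stricter gate left 0 in early granulocyte-like cells, and a gate on thinned cells 1 there and 2 in B progenitor-like cells. A limit of 10 CPM gave 4 in immature neutrophil-like, 4 in B progenitor-like and 3 in T-like cells. A total of genes with at most 8 kb of intron gave 4 in nonclassical monocyte-like cells, as did the 1.5-fold limit (4), which gave 1 lower in B-like cells. Named clusters gave 2 higher in B progenitor-like and 1 lower in B-like cells. Without a cell filter, or with doublets kept, T-like cells had 2 higher, and at most 5% mitochondrial counts left 0 in erythroid-like cells. Shares of mature cells with a UMI rose with depth. With 2000 UMIs they were 65.4% for Il1b, 92.6% for Il1r2 and 46.5% for Nlrp3 in the Mg-TAGelMA library, and 52.1% for Il1r2 in the Mg library. Without thinning they were 78.1%, 99.0% and 70.6% in the Mg-TAGelMA library, and 22.5%, 61.6% and 19.4% in the Mg library. No paired analysis was possible because each nail had 1 library.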
